A study of Oryza sativa with 3 samples.

Results

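miR1428 is a rice microRNA (miRNA) family that was represented by 1 mature sequence, osa-miR1428e, in embryos of germinating rice seeds. The family was selected on its measured abundance, because its reads were far more frequent after imbibition than in the dry seed, and its members were all mature sequences that the table of known miRNAs lists under that family. Counting no mature sequence more than 1 time, the family made up 1 of 59 known sequences, 1 of 42 known families and 1 of 83 known precursors. Together with 230 sequences that the study predicted and named OsmiR, 289 mature sequences were available for comparison. Because the time points at which osa-miR1428e was high or low were the basis of the choice, its differences between time points are given as a description and without a test.

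The study followed the small RNAs of the embryo through the first day of rice seed germination. De-hulled seeds of the cultivar Nipponbare, with no other treatment, took up distilled water in the dark at 30 °C, and embryos were dissected by hand after 0 (dry seed), 12 and 24 h, named here 0, 12 and 24 hours after imbibition (HAI). The RNA of several plates of seeds was mixed for each time point, small RNAs of 18 to 30 nt were cut from a gel, and 1 library per time point was sequenced. There were thus 3 libraries and no replicates, so a difference between time points is a difference between 2 libraries, and the limits below cover counting error only.

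Plant miRNAs are cut by a Dicer-like enzyme from a hairpin in a longer transcript, and the mature strand guides an Argonaute protein to mRNAs of nearly complementary sequence, which are then sliced or translated less. Families shared by distant plants, such as miR156 or miR166, mostly regulate transcription factors, whereas families known only from rice or its relatives are often expressed weakly or in few tissues. The dry embryo holds RNA stored from seed maturation, and transcription resumes when the seed takes up water. The study predicted OSK3, a kinase gene of the SnRK1 group that acts in sugar and energy signalling, as a target of osa-miR1428e. It detected OSK3 mRNA cut at the site matched by the miRNA, although most sequenced fragments began further downstream. By RT-PCR of biological replicates, apart from the libraries, it reported that osa-miR1428e rose and OSK3 mRNA fell during imbibition. The mRNA of this gene was not analysed here.

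The mature sequence is shown because all reads described here were assigned to it, and the precursor because it fixes the locus and the arm. The mature sequence was 21 nt long and is written 5′ to 3′ with its seed, bases 2 to 8, in capitals.
osa-miR1428e: tAAGATAAtgccatgaatttg
The precursor is also written 5′ to 3′, with the mature sequence in capitals.
osa-MIR1428e: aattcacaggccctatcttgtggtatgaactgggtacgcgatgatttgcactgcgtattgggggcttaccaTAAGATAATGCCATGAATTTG

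The precursor lay on chromosome 3, plus strand, at bases 23076880 to 23076971 of the MSU 7.0 rice genome, and the mature sequence occupied bases 23076951 to 23076971. The table placed it in an exon and named no host gene. Of the 59 known sequences, 23 were placed in exons. The table put osa-miR1428e in the class of miRNAs identified only in rice, which held 21 sequences of 18 families, and 5 of these 21 were placed in exons. No opposite strand (miRNA*) was recorded for it. The mature sequence came from the 3p arm, as did 31 of the 59 known sequences. It began with T, the DNA letter for U, as did 38 of the 59, and 31 of the 59 had its length of 21 nt. All 3 features were shared by 13 of the 59 known sequences.

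The mature sequence was poor in G and C, with 6 of its 21 bases (28.6%). Its seed was found in 0 of the other 288 named sequences. The longest stretch it had in common with any of them was 8 bases, shared with 4 sequences. No other named sequence lay within its precursor. Reads had been matched to miRBase with up to 2 mismatches, so reads of a closely similar member of the family, if present, could not be told apart from those of osa-miR1428e.

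The precursor was 92 nt long, close to the median of 93 nt for the 83 known precursors. Its G+C content was 44.6%, placing it at 58 of 83 when ordered from the highest, against a median of 49.5%. The listed minimal folding free energy (MFE) was -40 kcal/mol, compared with a median of -48.3 kcal/mol. The MFE index (MFEI), which is the negative MFE per 100 nt divided by the percentage of G+C, was 0.976. This ranked 54 among the 83 known precursors, whose MFEI extended from 0.721 to 1.73 with a median of 1.02, and lay over the limit of 0.85 that the study set for predicted miRNAs. The osa-miR1428e hairpin was thus of ordinary length and somewhat lower in G+C and in folding index than the median known precursor.

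Folding with RNAfold gave an MFE of -40.2 kcal/mol and an MFEI of 0.980. The structure had 34 base pairs and closed with a loop of 5 nt. The mature sequence filled bases 72 to 92, the very 3′ end, and its partners lay within bases 1 to 20, at the 5′ end. Of the 21 mature bases 16 were paired, and 1 of these pairs was a G-U wobble. Bases 1 to 7 were paired in 1 unbroken stretch, and 6 of the 7 seed bases were paired. The unpaired bases were 8, 9, 13, 20 and 21, counted from the 5′ end of the mature sequence.

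**Figure D1:**
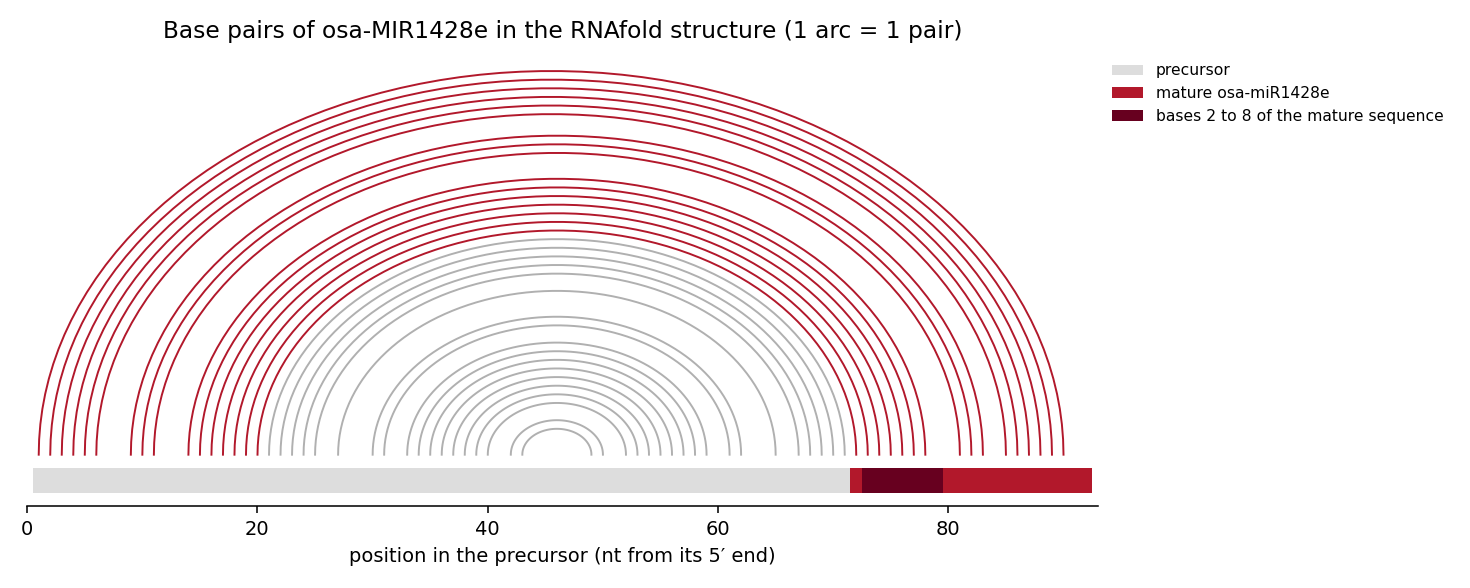
Base pairs of the osa-miR1428e precursor as folded by RNAfold, plotted against position in nt from the 5′ end. Each arc is 1 pair, arcs that touch the mature sequence are red, and 16 of the 21 mature bases are paired, with partners within bases 1 to 20.

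osa-miR1428e was scarce in the dry embryo and abundant after imbibition. At 0 HAI it had 21 reads, with exact Poisson 95% limits of 13 to 32.1. At 12 HAI it had 2100 reads (2011 to 2192), and at 24 HAI 2228 reads (2136 to 2322). The dry library therefore stood far below both imbibed libraries, while these differed from each other by 128 reads.

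The libraries were of similar size, with 19203513, 22332607 and 17359816 genome-mapped reads at 0, 12 and 24 HAI. The abundance in TPM, here reads per 1000000 genome-mapped reads, was 1.09 (0.677 to 1.67) at 0 HAI, 94.0 (90.1 to 98.1) at 12 HAI and 128 (123 to 134) at 24 HAI. A single read was worth 0.0521, 0.0448 and 0.0576 TPM in the 3 libraries. The level at 0 HAI was thus well over that of 3 reads, 0.156 TPM, and the sequence was detected in the dry embryo. Whether its higher level came from more copies per cell or from more of the cells that hold it cannot be told apart in RNA of whole embryos.

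The abundance at 12 HAI was 86.0 times that at 0 HAI, with exact conditional 95% limits of 56.1 to 139, or 6.43 on the log2 scale. At 24 HAI it was 117 times that at 0 HAI (76.6 to 190), or 6.87 on the log2 scale. The width of both intervals followed from the 21 reads at 0 HAI. Among all 289 named sequences, 34.6% were over 2-fold higher at 12 than at 0 HAI and 47.4% at 24 than at 0 HAI, so being over 2-fold higher was common, and the median ratios were 1.72 and 1.94. With a count of 3 or fewer at 0 HAI set to 3, both ratios were the highest of the 59 known sequences, for which the medians were 1.82 and 2.53. At 12 against 0 HAI the ratio of osa-miR169c was 28.5 (12.9 to 78.6), with limits that overlapped those of osa-miR1428e. The limits of some known sequences with 3 or fewer reads at 0 HAI overlapped them as well.

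From 12 to 24 HAI the ratio was 1.36 (1.29 to 1.45), or 0.45 on the log2 scale. The reads themselves were only 1.06 times as many, and the genome-mapped reads at 24 HAI were 0.777 times those at 12 HAI, so most of this ratio came from the division by library size. It was the 20th highest of the 59 known ratios, whose median was 1.13. Over 2-fold higher at 24 than at 12 HAI were 13.8% of the 289 named sequences, and osa-miR1428e was not among them. In TPM the level at 12 HAI was 0.733 of that at 24 HAI, so most of its difference from the dry embryo was present in the 12 HAI library.

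**Figure D2:**
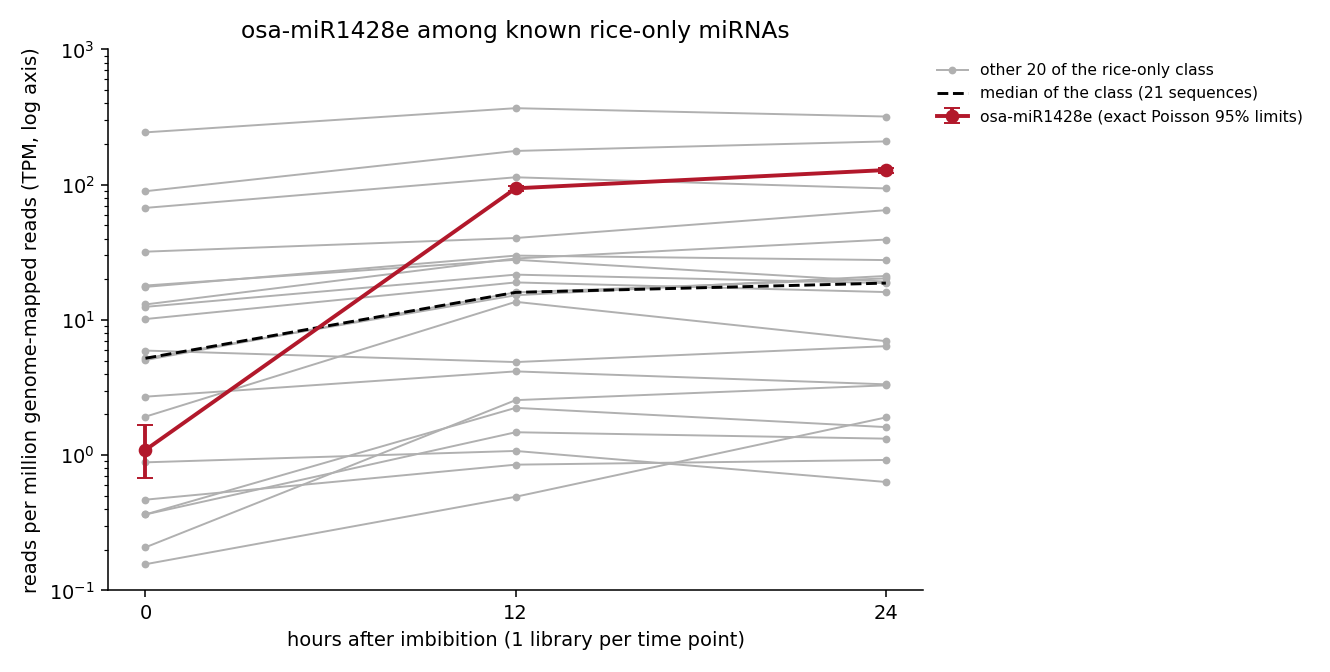
Abundance in TPM (log axis) against hours after imbibition for osa-miR1428e (red, bars are exact Poisson 95% limits) and the other 20 sequences of the rice-only class (grey), with the class median dashed. osa-miR1428e lies below the class median at 0 HAI, at 1.09 against 5.21 TPM, and above it at 24 HAI, at 128 against 18.7 TPM.

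The share of osa-miR1428e within the miRNA reads does not use the genome-mapped reads. It was 0.00736% of 285143 miRNA reads at 0 HAI (Wilson 95% interval 0.00482% to 0.0113%), 0.331% of 634097 at 12 HAI (0.317% to 0.346%) and 0.377% of 590212 at 24 HAI (0.362% to 0.393%). In each library it remained a small part of the miRNA reads. Of the reads of the rice-only class it held 0.207% in the dry embryo, 9.57% after 12 h and 12.8% after 24 h. Within that class it had the 15th, 4th and 3rd most reads of 21 sequences.

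The rank by reads within a library is free of any scaling. Among the 59 known sequences osa-miR1428e ranked 46 at 0 HAI, 19 at 12 HAI and 18 at 24 HAI. Moving only its own reads to their limits gave ranks of 45 to 49, 18 to 20 and 17 to 18. The ranks at 12 and 24 HAI were thus not separated, and counting error of the other sequences would widen these ranges. It gained 28 places from 0 to 24 HAI, 27 of them by 12 HAI. The next largest gains from 0 to 24 HAI were 21 places for osa-miR169c, a member of the family that targets NF-YA transcription factors, and 17 places for osa-miR1432. Among all 289 named sequences its ranks were 130, 21 and 19.

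**Figure D3:**
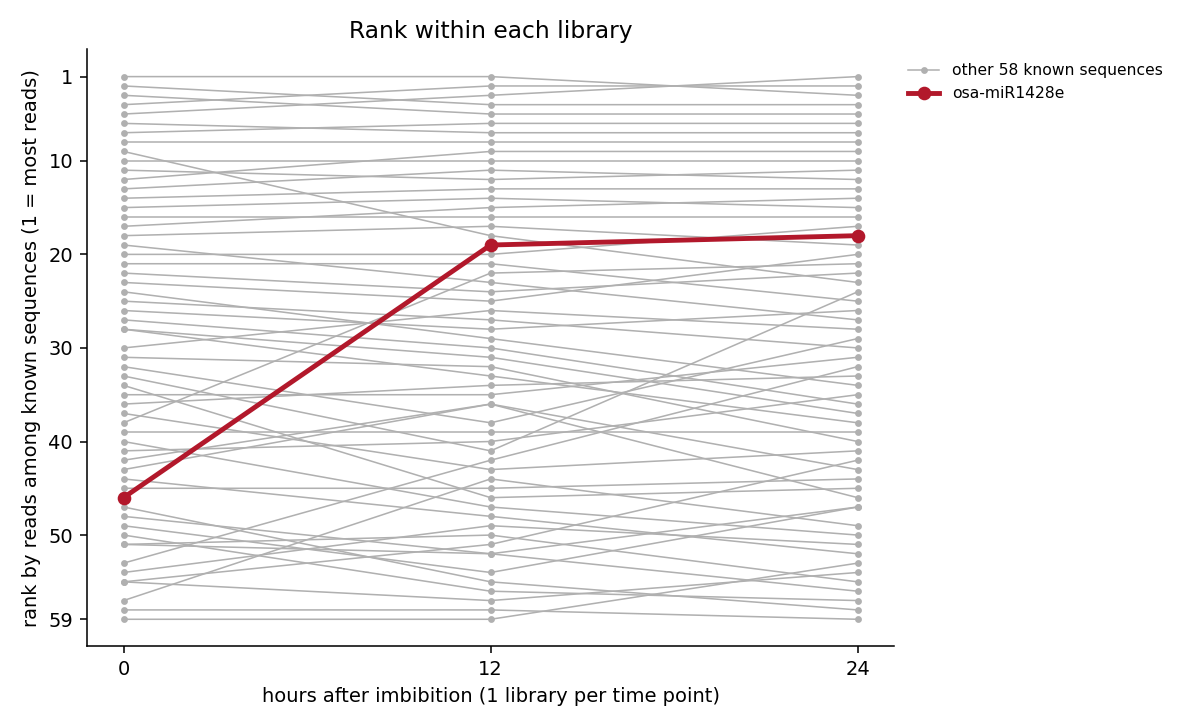
Rank by reads among the 59 known sequences (1 is the most reads) against hours after imbibition, with osa-miR1428e in red and the other 58 in grey. The red line goes from 46 to 19 and 18.

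At 0 HAI the neighbours of osa-miR1428e in rank were all of few reads. Just above it were osa-miR164abf, whose family targets NAC transcription factors, with 35 reads and osa-miR827, which acts in phosphate homeostasis, with 27 reads. Just below it were osa-miR440 with 17 reads and osa-miR393a, of the family that targets auxin receptors, with 16 reads. The limits of 13 to 32.1 reads for osa-miR1428e include the reads of osa-miR827, osa-miR440 and osa-miR393a.

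At 12 HAI it lay between ptc-miR6478, a sequence named from poplar, with 2165 reads and osa-miR171i, of the family that targets GRAS transcription factors, with 2084 reads. Both values were within its limits of 2011 to 2192 reads. Further out were osa-miR1862abc with 2534 reads and osa-miR162b, of the family that targets the Dicer-like enzyme mRNA, with 1154 reads. At 24 HAI the nearest sequences were osa-miR171i with 2318 reads, within the limits of 2136 to 2322, and osa-miR167abc, of the family that targets auxin response factors, with 2344 reads. Those below were clearly lower, osa-miR1862abc with 1629 reads and osa-miR396a, of the family that targets growth-regulating factors, with 1564 reads. The level of osa-miR1428e was therefore near that of osa-miR440, osa-miR393a and osa-miR827 in the dry embryo. It was near that of ptc-miR6478 and osa-miR171i at 12 HAI and near that of osa-miR171i at 24 HAI.

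The distance to the other known sequences was large for the 24 to 0 HAI ratio. The family was chosen on this difference, so comparing its limits with others is a description and no test. The upper limits of 53 of the other 58 known sequences lay below the lower limit of 76.6 for osa-miR1428e. Of the 5 whose limits overlapped, only osa-miR169c had more than 3 reads at 0 HAI. osa-miR169c had 6, 199 and 355 reads at 0, 12 and 24 HAI and a ratio of 65.5 (29.8 to 180), the second highest of the known sequences with 3 reads set in place of any lower count at 0 HAI. The order of these 2 sequences is thus not settled at this depth.

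**Figure D4:**
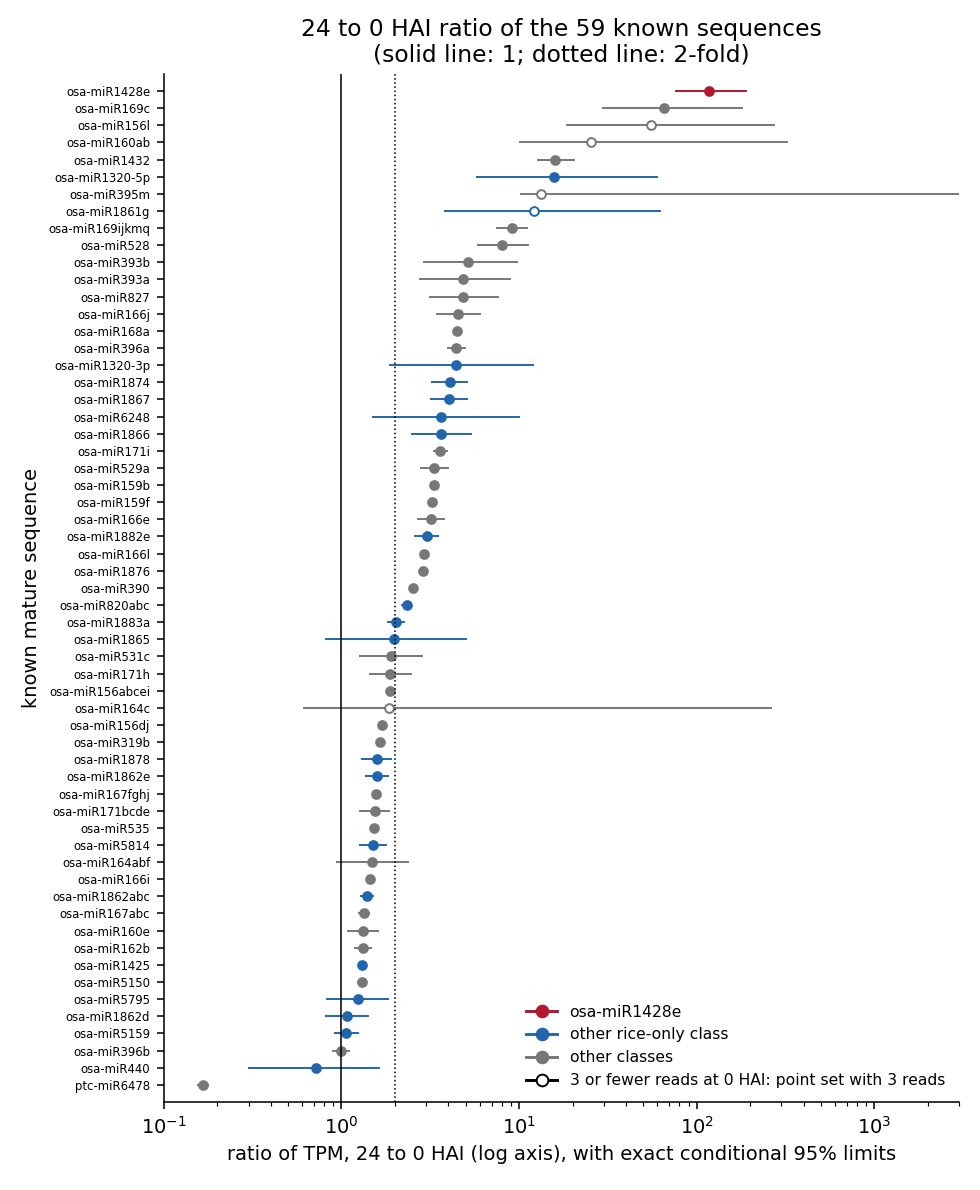
Ratio of TPM at 24 to 0 HAI (log axis) for the 59 known sequences, with exact conditional 95% limits. osa-miR1428e is red, the other sequences of the rice-only class are blue and the rest grey, open points are set with 3 reads at 0 HAI, and the limit of osa-miR395m, with 0 reads at 0 HAI, has no upper end. osa-miR1428e is the highest at 117, followed by osa-miR169c at 65.5.

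The functions of the sequences named OsmiR were not analysed here. For OsmiR-203 the study detected a predicted target, the mRNA of a protein phosphatase gene, cut at the matched site. Most sequenced fragments of that mRNA began further downstream. Among the OsmiR sequences, OsmiR-38 had the only higher ratio under the same rule. It had 0, 366 and 356 reads, which gave a 24 to 0 HAI ratio with an exact lower limit of 106, and of 131 with 3 reads set at 0 HAI. OsmiR-203 had 4, 391 and 288 reads and a ratio of 79.6 (30.8 to 294). It was the only one of 27 OsmiR sequences with overlapping limits that had more than 3 reads at 0 HAI. Ratios of this size with over 3 reads in the dry embryo were therefore seen in osa-miR1428e, osa-miR169c and OsmiR-203, and osa-miR1428e had by far the most reads of them.

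The other members of the rice-only class did not share a difference of this size. Class counts were made with genome-mapped reads only, and the scalings to miRNA levels described below lower all ratios to the dry embryo. At 24 against 0 HAI, 11 of its 21 sequences were over 2-fold higher and 0 were over 2-fold lower. Without osa-miR1428e, 10 of 20 were higher. Among all 289 named sequences 47.4% were over 2-fold higher and 5 sequences over 2-fold lower, and the class median ratio was 2.03. At 12 against 0 HAI the class counts were 9 and 0, with a median of 1.87. Without osa-miR1428e, 8 of 20 were higher, and among all named sequences 34.6% were higher and 4 sequences lower. At 24 against 12 HAI the class counts were 1 and 0, with a median of 0.926. Among all named sequences 13.8% were then higher and 11 sequences lower. The summed reads of the class gave a 24 to 0 HAI ratio of 1.90 (1.85 to 1.95) with osa-miR1428e and 1.66 (1.62 to 1.70) without it. A single sequence thus accounted for a visible part of the summed difference of the class.

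The next highest class member was osa-miR1320-5p, with 4, 57 and 57 reads and a ratio of 15.8 (5.83 to 59.8). It was followed by osa-miR1861g with 3, 11 and 33 reads (ratio 12.2, 3.82 to 62.0). osa-miR1320-3p, from the other arm of the osa-miR1320 precursor, had 7, 50 and 28 reads (ratio 4.42, 1.89 to 12.0). The upper limits of these 3 all lay below the lower limit for osa-miR1428e, again as a description. osa-miR1874 had 100, 340 and 367 reads and a ratio of 4.06 (3.25 to 5.12). At the low end, osa-miR5159 had 345, 622 and 333 reads, with a ratio of 1.07 (0.916 to 1.24), and osa-miR440 had 17, 24 and 11 reads, with a ratio of 0.716 (0.303 to 1.62). With genome-mapped reads the limits of both include 1, so for them no difference was detectable with that scaling. The scalings to miRNA levels described below give lower ratios.

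To find the sequences with the most similar time course, the TPM of each sequence was divided by its highest value of the 3 libraries, and the Euclidean distance from osa-miR1428e was taken. On that scale osa-miR1428e had values of 0.00852, 0.733 and 1. With at least 100 reads over the 3 libraries required, 140 other sequences were compared, 51 known and 89 OsmiR, and their median distance was 0.569. Within a distance of 0.1 were 7 sequences, the last at 0.0750. The next was at 0.211. The likeness is over 3 libraries only, which share their sizes and their preparation among all sequences.

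The 5 nearest known sequences, in order, were osa-miR1432, osa-miR1320-5p, osa-miR528, osa-miR166j and osa-miR1874. osa-miR1432 had 80, 1052 and 1157 reads and a distance of 0.0599. Its dry library was low as well, but its 24 to 0 HAI ratio of 16 (12.7 to 20.3) was well below that of osa-miR1428e. osa-miR1320-5p was at 0.0708. osa-miR528, which targets copper proteins such as ascorbate oxidase, had 45, 234 and 327 reads, a distance of 0.211 and a ratio of 8.04. osa-miR166j, of the family that targets class III HD-Zip transcription factors, had 66, 242 and 271 reads, a distance of 0.215 and a ratio of 4.54. osa-miR1874 was at 0.238. In all 5, the 24 HAI library had the highest TPM and the 0 HAI library the lowest, a pattern that follows from their choice by time course.

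The 5 nearest OsmiR sequences were OsmiR-101, OsmiR-124, OsmiR-230, OsmiR-38 and OsmiR-68. OsmiR-101 had 1, 215 and 214 reads and the smallest distance of all, 0.0485. OsmiR-124 had 2, 134 and 154 reads (distance 0.0564), and OsmiR-230 had 26, 361 and 370 (0.0607). OsmiR-38 was at 0.0670. OsmiR-68 was the most abundant of them, with 53, 1355 and 1594 reads, a distance of 0.0750 and a ratio of 33.3 (25.3 to 44.6). In each of the 5 the dry library was far below the imbibed libraries, as for osa-miR1428e, which follows from their choice by time course.

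**Figure D5:**
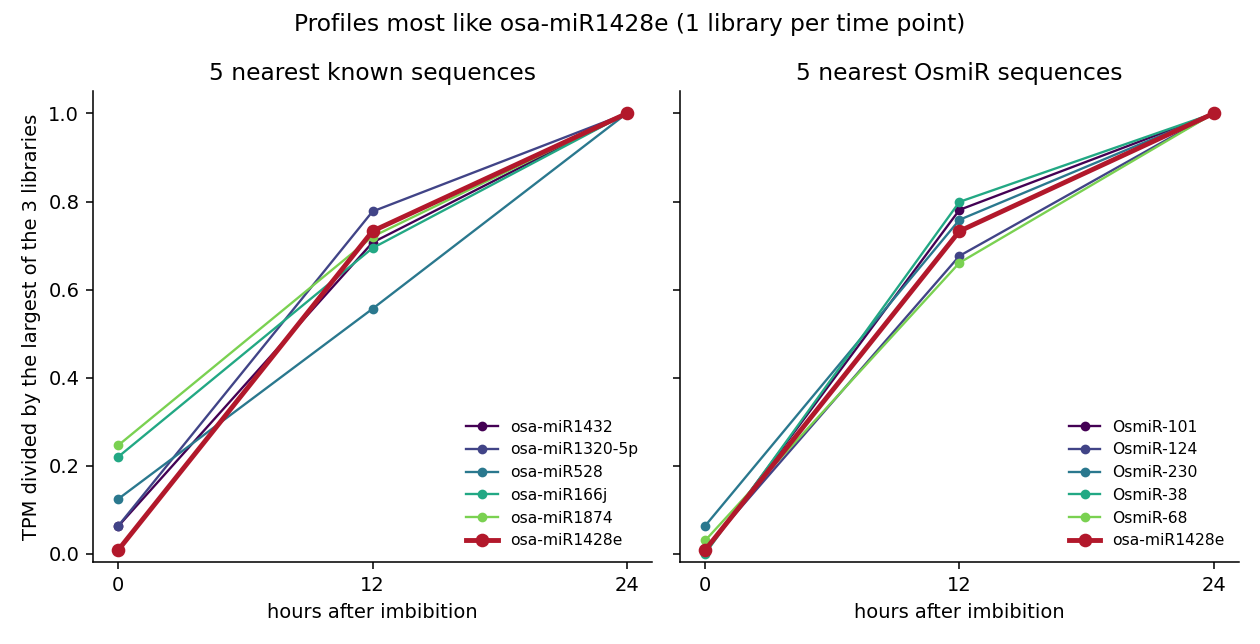
TPM divided by the highest of the 3 libraries, against hours after imbibition, for osa-miR1428e (red) and its 5 nearest known (left) and 5 nearest OsmiR sequences (right). osa-miR1428e has values of 0.00852, 0.733 and 1, and at 0 HAI the known neighbours lie above it.

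The sequences of the 7 within 0.1 are shown, with bases 2 to 8 in capitals, so that their seeds can be compared with that of osa-miR1428e.
OsmiR-101: aAAATATAtagaacataagagtcc
OsmiR-124: gGAATGGAtgcgtagagaaaga
osa-miR1432: aTCAGGAGagatgacaccgaca
OsmiR-230: cCAAATTCccaacttttcatc
OsmiR-38: gGGAAATGctagaatgacttacac
osa-miR1320-5p: tGGAACGGaggaattttatag
OsmiR-68: gCTCACTGctctgtctgtcatc
None of the 7 had the seed of osa-miR1428e, which already follows from its absence in all other named sequences. Each of the 7 seeds was found in 1 named sequence only, and how common such seeds are among all named sequences was not counted. The 7 sequences, which were chosen for their time course on this scale, thus did not share a seed.

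The precursor listed nearest to that of osa-miR1428e on chromosome 3 was OsMIR-120-2, also on the plus strand, at bases 22974258 to 22974467 (MSU 7.0), 102413 bases away. OsmiR-120 was listed with 2 precursors, and its reads could not be assigned to the one near osa-miR1428e. It had 23, 46 and 25 reads and a 24 to 0 HAI ratio of 1.202 (0.655 to 2.22), with a distance in time course of 0.700. At 0 HAI it was therefore as scarce as osa-miR1428e, and at 24 HAI it was far below it. The nearest known precursor was osa-MIR171i, 1885167 bases away. osa-miR171i had 710, 2084 and 2318 reads and a ratio of 3.61 (3.32 to 3.93), with a distance in time course of 0.270, below the median of 0.569 and above those of the 5 nearest known sequences. In reads, osa-miR1428e was near osa-miR171i at 12 and 24 HAI and far below it at 0 HAI.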

How the data were processed

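Small RNAs of rice embryos were sequenced in 3 libraries, 1 per time point. The authors filtered reads (FastQC), mapped 18 to 30 nt reads to MSU 7.0 with Bowtie, removed structural RNAs (Rfam 11), matched miRBase 21 with up to 2 mismatches and predicted further miRNAs with miRDeep2. The deposited read counts are not normalized. The TPM deposited by the authors equalled the counts divided by genome-mapped reads, times 1000000, since all 1221 of 1221 values gave whole reads within 0.001. The MFE, a folding score in kcal/mol, was computed by the authors with Mfold 3.2. The rows of the known table stand in it 2 times, and the first set was used. An unnamed sequence (1 in all) was left out.

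Columns were mapped to time points by the labels, 0 HAI being the dry seed. Genome-mapped reads were recovered from counts and TPM. Ratios have exact conditional (Clopper-Pearson) 95% limits, reads exact Poisson limits and shares Wilson intervals. PCR reads without molecular identifiers are not independent molecules. A count of 3 or fewer in the lower library was set to 3 for ranking and for the 2-fold rule. edgeR's test could not be fitted without replicates. The limits were checked on simulated libraries with Poisson counting error only, which leave out PCR copies and the spread between plates. The mature sequence was placed on the genome by its position in the listed precursor.

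Named sequences were osa-miR1428e, the 5 nearest known and 5 nearest OsmiR sequences in time course with at least 100 reads, 2 known sequences above and 2 below in rank, and in the rice-only class the 5 highest and 2 lowest ratios. osa-miR169c, osa-miR395m, OsmiR-203 and the sequences near the locus were added after their values were seen. The family, the lists and the rules were chosen with earlier results of these data known. The alternatives were 5 other scalings, 1 read added, minimums of 10 and 100 reads, known sequences alone or with OsmiR, each precursor listing counted, a log scale for time courses and the MFE of RNAfold. Scaling factors were taken from DESeq2 1.42.0 and edgeR 4.0.16 in R 4.3.3. Structures were folded with RNAfold 2.7.2, and the rest was computed in Python 3.11.15 (scipy 1.17.1, numpy 2.4.6, pandas 2.3.3) and drawn with matplotlib 3.10.9. Targets, the host gene and other tissues were not analysed here.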

Additional observations from a re-analysis of the deposited data

How the results depend on the processing

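Of 51 alternative values, 24 moved by less than their counting limits or 1.5 times, 27 moved further and 0 reversed direction. Only the ratios have a direction that could reverse, and the ranks, shares and other values do not. Scaling changed the ratios of osa-miR1428e. With summed miRNA reads, TMM factors of edgeR and size factors of DESeq2, its 12 to 0 HAI ratio was 45.0, 49.1 and 47.6, its 24 to 0 HAI ratio 51.3, 58.6 and 59, and its 24 to 12 HAI ratio 1.14, 1.19 and 1.24. These 3 scalings set the overall miRNA level nearly equal between libraries. The median log2 ratio of all 289 sequences at 24 against 0 HAI was 0.96 with genome-mapped reads and -0.24, -0.04 and -0.03 with them. Relative to the median ratio of all sequences, that of osa-miR1428e was 60.4-fold higher at 24 HAI and 50-fold higher at 12 HAI. These 2 values are the same under any scaling by construction, since a scaling moves all sequences of a library alike, and they are no sign of stability.

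With the same 3 scalings, the share of sequences over 2-fold higher was 10.03%, 11.1% and 10.7% at 12 against 0 HAI and 13.8%, 18.0% and 18.3% at 24 against 0 HAI. At 24 against 12 HAI it was 9.0% with summed miRNA reads and 8.51% for sequences with at least 100 reads. With each precursor listing counted, osa-miR1428e ranked 69, 33 and 30 at 0, 12 and 24 HAI and held 0.00418%, 0.1995% and 0.235% of the miRNA reads, and with OsmiR sequences included it ranked 130, 21 and 19. On the log scale, log2(TPM + 0.01), 5 of the 10 nearest time courses were shared. osa-miR169c was then the nearest known sequence.

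The 21 reads at 0 HAI limit every ratio to the dry embryo. With 1 library per time point, the spread between plates of seeds is unknown, and no paired analysis was possible because there are no replicates.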
